A study of Mus musculus with 5 samples.

Results

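Neutrophils are drawn into tissue by a small family of secreted proteins, the CXC chemokines that carry an ELR motif, which bind the receptors CXCR2 and, less widely, CXCR1 on the neutrophil surface. In injured kidney such chemokines are known to come from tubule cells and from resident and incoming leukocytes. CXCL12 and its receptor CXCR4 form a separate pair, best known for holding neutrophils in bone marrow and for guiding lymphocytes and progenitor cells. The 8 genes described here were chosen by symbol: the ligands Cxcl1, Cxcl2, Cxcl3 and Cxcl5, the receptors Cxcr1 and Cxcr2, and the pair Cxcl12 and Cxcr4. They are 8 of the 32285 genes in the count matrix, and all 8 had at least 1 unique molecular identifier (UMI, the tag that marks a single captured transcript) in the cells kept.

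The data were droplet single-cell RNA-seq of whole kidney from male C57BL/6J mice, prepared with 3' chemistry. Kidneys were taken after unilateral ischaemia-reperfusion (UIR, in which the vessels of the left kidney are clamped and released) at days 1, 3, 14 and 28, or after a Sham operation. Each kidney sample is described as coming from 3 mice, and the study's methods also count several matrices per condition, so how animals, matrices and the libraries here relate is not settled. The labels of these samples name no transgene or deletion in any group. The 5 libraries in the matrix are told apart only by the number at the end of each barcode, and no label ties that number to an injury day or to Sham. Conditions were therefore not compared, the libraries are called 1 to 5, and the matrix was treated as 1 pooled sample with no test between groups. The intervals below are 95% intervals that cover counting error only (exact Poisson for a level, exact conditional binomial for a ratio, Clopper-Pearson for a share), and the values in single libraries show how far a result moved between them. A level is the number of UMIs of the gene per 1000000 UMIs of the cells in question (CPM).

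Cell calling and filtering left 57417 cells, with 8240 to 18852 cells per library and library medians of 4038 to 5342.5 UMIs. Cells were sorted into classes by marker genes that include none of the 8 genes, and a name such as neutrophil stands below for a neutrophil-like cell by these markers. There were 1127 neutrophils, 1460 mononuclear phagocytes, 1021 T cells, 243 B cells, 228 endothelial cells, 36 fibroblasts, 718 failed-repair tubule cells (gated on Vcam1, Dcdc2a and Sema5a), 3507 proximal tubule cells with a UMI of the injury marker Havcr1 (KIM-1) and 42251 without. A further 2146 cells, called mixed below, were set aside because they passed more than 1 gate or carried too many tubule transcripts for their class, and 2622 were unassigned. The name failed-repair tubule stands for its gate alone, which asks for 2 of the 3 markers. The leading genes of that class were Tagln, Vcam1, Cp and Akap12, with the contractile genes Acta2 and Cald1 also among the first 10. A median of 1.09% of its UMIs were proximal tubule markers, against 3.31% in Havcr1-negative proximal tubule and 0.127% in phagocytes. The phagocyte gate capped that share, and the failed-repair gate did not. In free RNA (droplets too poor to hold a cell) those markers made up 15952, 21739, 13279, 23456 and 30077 CPM in libraries 1 to 5. Each was a larger share than 1.09%, and the tubule origin of the class was not tested. Of the phagocytes, 214 had only the markers required and 81 lay within 2 times the limit on marker excess over free RNA. Neutrophils numbered 51, 516, 380, 178 and 2 in libraries 1 to 5, so library 5 gives no neutrophil value. Of the neutrophils, 171 had only the 3 markers the gate required, and their median depth was 1302 UMIs against 4632 in all kept cells. The sample labels also carry the cell type "Goblet cell", and the 5 goblet markers Muc2, Fcgbp, Clca1, Spink4 and Zg16 together had 101 UMIs in all kept cells. In 349 instances the same cell barcode was kept in more than 1 library, which involved 699 cells and 18 neutrophils.

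The 4 ELR ligands lie together on chromosome 5 of GRCm38, at chr5:90891241-90893115 (Cxcl1), chr5:90903871-90905938 (Cxcl2), chr5:90786103-90789600 (Cxcl3) and chr5:90759360-90761624 (Cxcl5), all on the plus strand in GENCODE vM21. Cxcr2 (chr1:74153989-74161246, plus strand) and Cxcr1 (chr1:74191785-74194631, minus strand) are neighbours on chromosome 1, Cxcr4 is on the same chromosome (chr1:128588199-128592293, minus strand), and Cxcl12 is on chromosome 6 (chr6:117168535-117181367, plus strand). RefSeq promoters of GRCm38.p6 (250 bases before to 50 after the transcript start) were matched for 7 members, all but Cxcl5. Those of Cxcl1, Cxcl2 and Cxcl3, the ELR ligands with most UMIs in these cells, each held the 9 letters GGAATTTCC, which resemble the binding motif of NF-kappaB, the factor best known for switching these genes on. The windows of 89 bases around it are shown 5′ to 3′ on the plus strand with those 9 letters in capitals (chr5:90891155-90891243 for Cxcl1, chr5:90903783-90903871 for Cxcl2 and chr5:90786009-90786097 for Cxcl3):
Cxcl1: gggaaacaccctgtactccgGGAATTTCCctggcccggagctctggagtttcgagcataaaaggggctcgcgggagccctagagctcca
Cxcl2: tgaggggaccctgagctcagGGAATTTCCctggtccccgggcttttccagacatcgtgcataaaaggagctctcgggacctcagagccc
Cxcl3: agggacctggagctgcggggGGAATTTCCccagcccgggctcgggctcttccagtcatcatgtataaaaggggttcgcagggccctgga
The letters begin 70, 96 and 72 bases before the RefSeq start of Cxcl1, Cxcl2 and Cxcl3, and in each window the TATA-like run ataaaag follows downstream. Read on both strands, the 9 letters occur in 104 of 32851 promoters of this length (0.317%), and they are absent from these windows of Cxcl12, Cxcr1, Cxcr2 and Cxcr4. The motif was picked after these promoters had been read, so the match is a description and not a site shown to be bound. Transcripts of Cxcl2 and Cxcl3 share an identical run of 110 bases, but at most 16 bases in their last 300, the part that 3' reads mostly cover. Reads from the shared run cannot be assigned to either of these 2 genes, while no other pair of members compared shared more than 23 bases.

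Neutrophils held the highest levels of 5 of the 8 genes among classes of at least 50 cells, both receptors of the ELR ligands included. The plot of levels by class sets out all 8 genes beside the level of free RNA, the transcripts found in droplets too poor to hold a cell. That level is a share of the UMIs in such droplets. A class below it may still hold transcripts of its own, and the part of a cell's UMIs that free RNA made up was not tested.

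**Figure D1:**
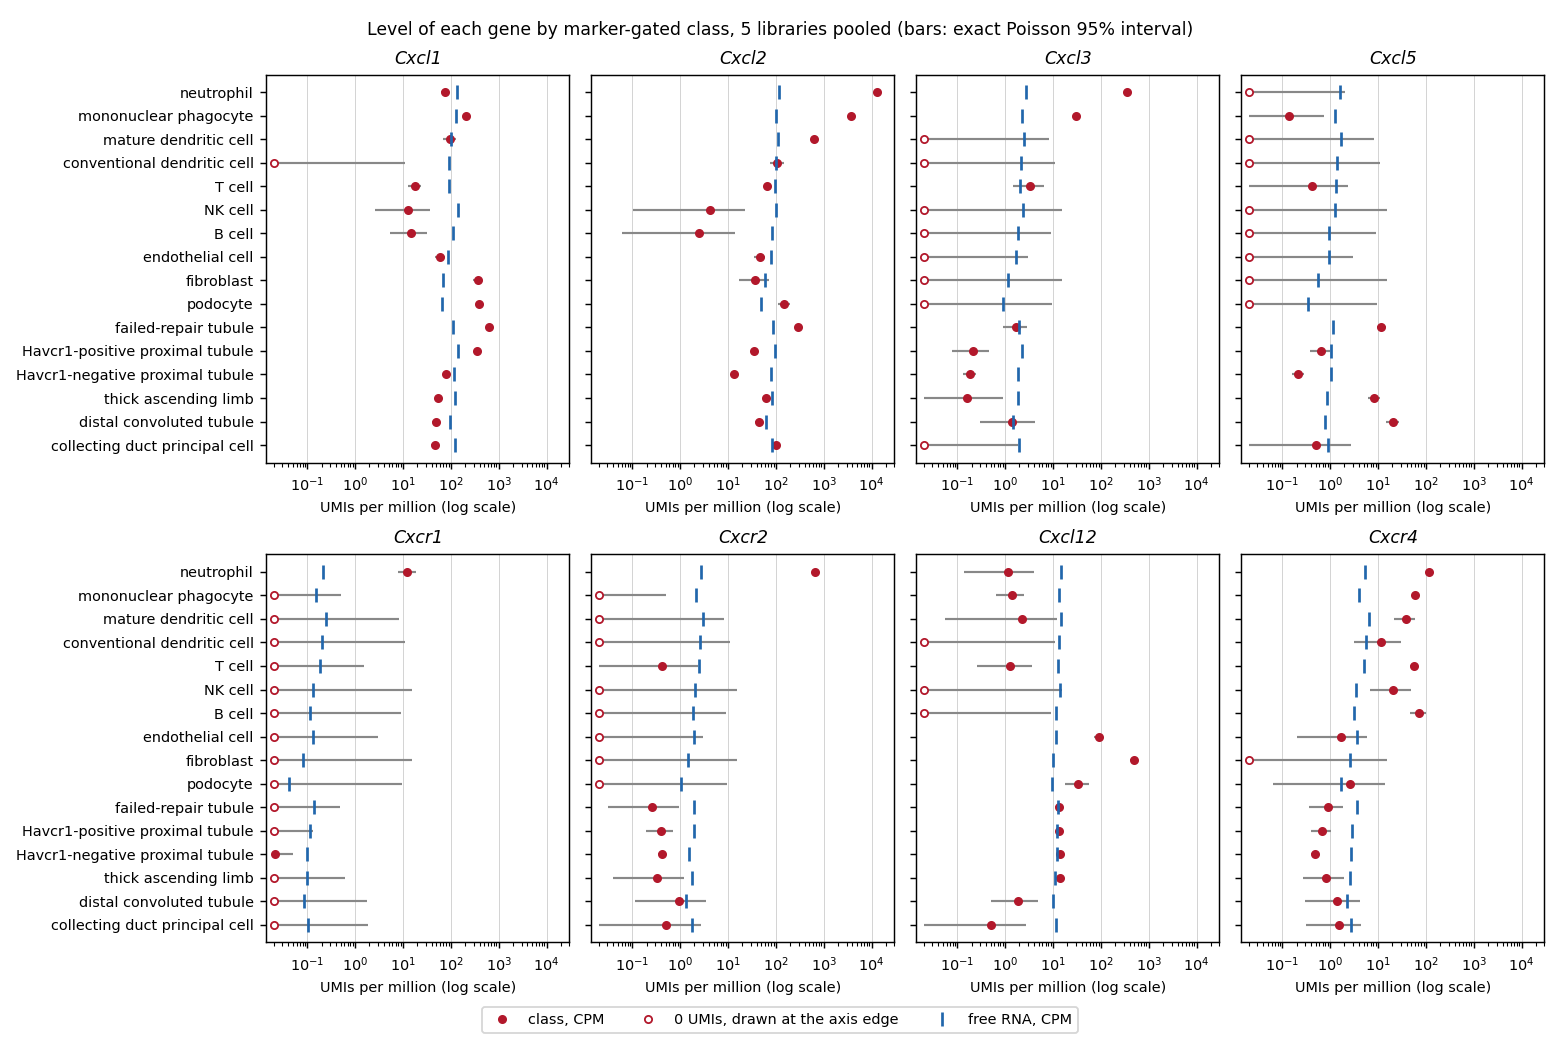
Level of each member in 16 marker-gated classes, 5 libraries pooled, in CPM on a log axis (red points, bars are exact Poisson 95% intervals, open points had 0 UMIs and are drawn at the axis edge). Blue ticks give the free-RNA level of the libraries the cells came from. Cxcr2 stands at 650.7 CPM in neutrophils and near or below the free-RNA tick in the other classes, whereas Cxcl1 is highest in failed-repair tubule at 614.3 CPM.

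Cxcl2 (MIP-2), a fast-induced neutrophil attractant, was the most abundant member, with 72719 UMIs. Its level in neutrophils was 5955 CPM in library 1, 12952 in library 2, 12658 in library 3 and 14019 in library 4, and 90.9% of neutrophils had a UMI (interval 89.0 to 92.5). That share was 56.9% in library 1 (29 of 51 cells) and 91.8% to 93.2% in libraries 2 to 4, so library 1 lay outside the counting interval. In mononuclear phagocytes the level was 3571, 3752, 4127, 2699 and 1831 CPM in libraries 1 to 5, with a UMI in 59.8% of cells (57.2 to 62.3). The phagocyte share was 57.0% to 63.7% in libraries 1 to 4 and 33.3% in library 5, and in library 1 (61.0%) it was above the neutrophil share. The neutrophil level lay above the phagocyte level in each of the 4 libraries that could be compared. Pooled, the neutrophil level was 3.51-fold higher (log2 ratio 1.81, interval 1.79 to 1.84), and within libraries the ratio ran from 1.67-fold in library 1 to 5.19-fold in library 4. Thinned to 1000 UMIs per cell, 91.0% of neutrophils and 52.3% of phagocytes had a Cxcl2 UMI, so the pooled order was the same at equal depth. B cells, which should not make Cxcl2, had a UMI in 0.412% of cells (median depth 1366 UMIs) and T cells in 4.5% (1810 UMIs), with 7 T cells holding 50% or more of the T cells' 158 UMIs.

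Phagocytes, more numerous and deeper (median 3856.5 UMIs), held 36.7% of all Cxcl2 UMIs and neutrophils 31.2%. Among phagocytes, Cxcl2 was highest in Arg1 macrophages at 6376 CPM, followed by C1q macrophages (complement C1q, a mark of resident macrophages) at 3673 and classical monocytes at 2992 CPM. Arg1 macrophages were gated on any 3 of Arg1, Fn1, Thbs1, Hmox1 and Ecm1, genes of injury-recruited macrophages, so Arg1 itself was not required. Of the 121 Arg1 macrophages, 94 came from library 3, where they stood at 6851 CPM beside 4494 for C1q macrophages (1.52-fold, interval 1.45 to 1.60). Library 4, the only other with 20 cells of each, gave 4855 beside 2658 CPM (1.83-fold, 1.67 to 1.99). Mixed cells held 15.02% of the Cxcl2 UMIs.

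Cxcl3, a close relative of Cxcl2, was also highest in neutrophils, at a much lower level. It stood at 125.8, 531.6, 236.3 and 185.9 CPM in neutrophils of libraries 1 to 4, and at 3.91, 29.1, 54.2, 12.04 and 0 CPM in phagocytes of libraries 1 to 5. The 0 in library 5 would allow up to 30.7 CPM at 3 counts. Within each of libraries 1 to 4 the neutrophil level was the higher, though library 1 rests on 6 and 5 UMIs. The pooled ratio was 11.9-fold (log2 3.58, interval 3.35 to 3.80). Without library 3, where the phagocyte level was highest, the log2 ratio was 4.63, and without library 2, where the neutrophil level was highest, it was 2.85. Neutrophils held 57.0% of the 1108 Cxcl3 UMIs and phagocytes 19.8%. Arg1 macrophages again stood above C1q macrophages, at 148.3 against 15.6 CPM, but within library 3 the values were 137.1 and 56.5 CPM (2.43-fold, 1.58 to 3.79), and in library 4, at 27.6 and 9.20 CPM, the interval of the ratio held no difference. The pooled log2 ratio, 3.25, was 2.63 without library 2 and 4.24 without library 3, and 3 Arg1 macrophages held 50% or more of that class's 100 UMIs. In proximal tubule the Cxcl3 level, 0.187 CPM, was below the free-RNA level of 1.92 CPM.

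Cxcl3 UMIs were found almost only in neutrophils that also had Cxcl2: 191 of the 194 neutrophils with Cxcl3 had a Cxcl2 UMI. Of the neutrophils with Cxcl2, 18.7% also had Cxcl3, against 2.91% of those without. The cells without Cxcl2 were shallower, with a median of 1121 UMIs against 1321, and the part of depth in this was not tested.

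Cxcl1 (KC), the ligand most often measured as a marker of tubular injury, had its highest level in the class gated as failed-repair tubule. Proximal tubule cells held 73.9% of its 38195 UMIs, failed-repair tubule 12.3%, phagocytes 4.07% and neutrophils 0.346%. Proximal tubule also supplied most UMIs of any kind, and its Cxcl1 level, 107.8 CPM, was below the 119.6 CPM of all kept cells. Pooled, failed-repair tubule was the highest class (614.3 CPM), with 911.8 CPM in library 1, 687.9 in library 2, 461.0 in library 3, 461.9 in library 4 and 34.7 in library 5. Havcr1-positive proximal tubule had 251.4, 399.1, 355.0, 313.4 and 66.7 CPM, and Havcr1-negative proximal tubule 62.4, 77.7, 156.9, 78.3 and 10.2 CPM. Pooled, podocytes and fibroblasts, described below, stood between failed-repair cells and Havcr1-positive cells (348.2 CPM). In libraries 1 to 4 the order of the 3 tubule classes was the same, and in library 5 Havcr1-positive cells (35 cells, 23 UMIs) stood above failed-repair cells (59 cells, 20 UMIs) with overlapping intervals.

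Pooled, Cxcl1 was 4.41-fold higher in Havcr1-positive than in Havcr1-negative proximal tubule (log2 2.14, interval 2.10 to 2.18), and the ratio was 2.26-fold in library 3 and between 4.01-fold and 6.52-fold in the other 4 libraries. The failed-repair level was 7.78-fold that of Havcr1-negative cells (log2 2.96, 2.91 to 3.01), from 2.94-fold in library 3 to 14.6-fold in library 1. After thinning to 1000 UMIs, 23.7% of failed-repair, 18.5% of Havcr1-positive and 5.02% of Havcr1-negative cells had a Cxcl1 UMI. A UMI of Havcr1 is itself found more readily in deep cells, and the median depths of the last 2 classes were 6865 and 4845 UMIs.

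The Havcr1-negative level was also set beside free RNA. Free Cxcl1 stood at 36.8, 86.9, 145.8, 268.6 and 45.9 CPM in libraries 1 to 5, and the Havcr1-negative level was above it in libraries 1 and 3 and below it in the other 3. B cells (14.8 CPM, in 2.47% of cells) and T cells (18.0 CPM, in 1.57% of cells), which should not make Cxcl1, stayed well under both. Havcr1-positive cells were above free RNA in every library, failed-repair cells in libraries 1 to 4. The share of the Havcr1-negative level that free RNA supplied was not tested.

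**Figure D2:**
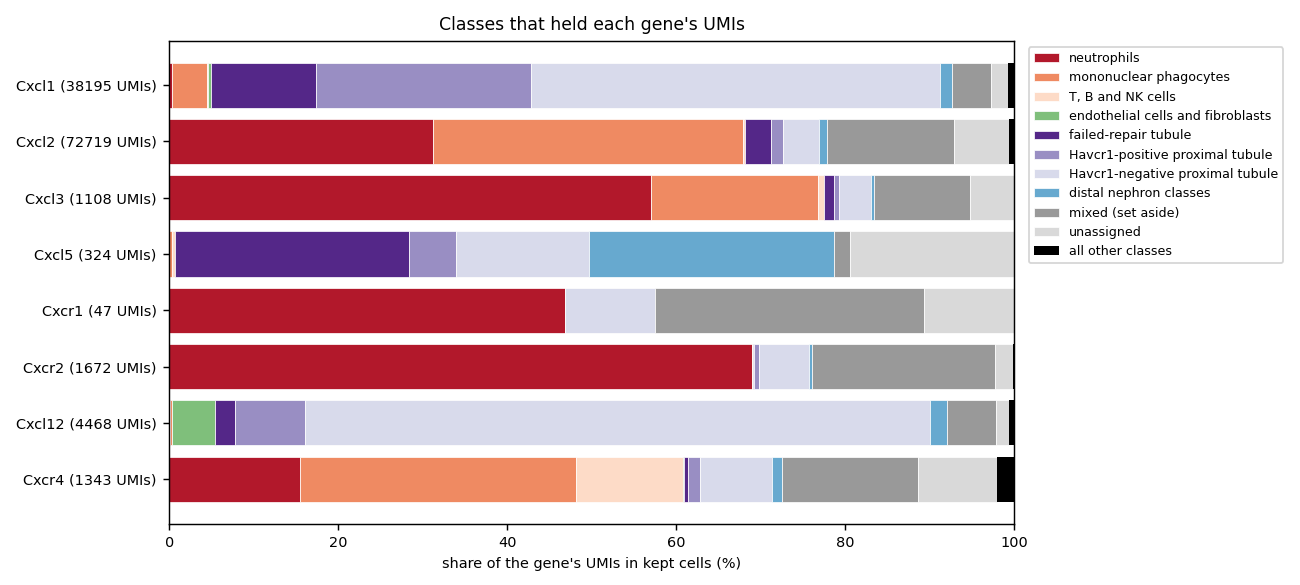
Share of each member's UMIs held by each class, in percent of the UMIs in all kept cells, with the UMI total beside each gene. Cxcl1 and Cxcl12 UMIs lie mostly in proximal tubule, by far the most numerous class, Cxcr2 UMIs mostly in neutrophils (69.0%), and Cxcl2 UMIs are divided between neutrophils (31.2%) and phagocytes (36.7%).

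In several classes few cells held a large part of a ligand's UMIs. In Havcr1-negative proximal tubule, 646 of 42251 cells (1.53%) held 50% or more of the Cxcl1 UMIs, against 5.65% of Havcr1-positive cells and 6.55% of failed-repair cells. Among phagocytes the top 10% of cells held 94.98% of Cxcl1 UMIs but 53.2% of Cxcl2 UMIs, and of the 224 phagocytes with Cxcl1, 200 also had Cxcl2. Cxcl2 in neutrophils was the most evenly spread of the ligands plotted, with the top 10% of cells holding 39.7%. Where the mean count is low, few cells can hold a UMI at all, so these shares also follow abundance. Havcr1-negative cells had 18493 Cxcl1 UMIs in 42251 cells, Havcr1-positive cells 9750 in 3507, and neutrophils 22678 Cxcl2 UMIs in 1127. The spread at equal mean count or depth was not tested.

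**Figure D3:**
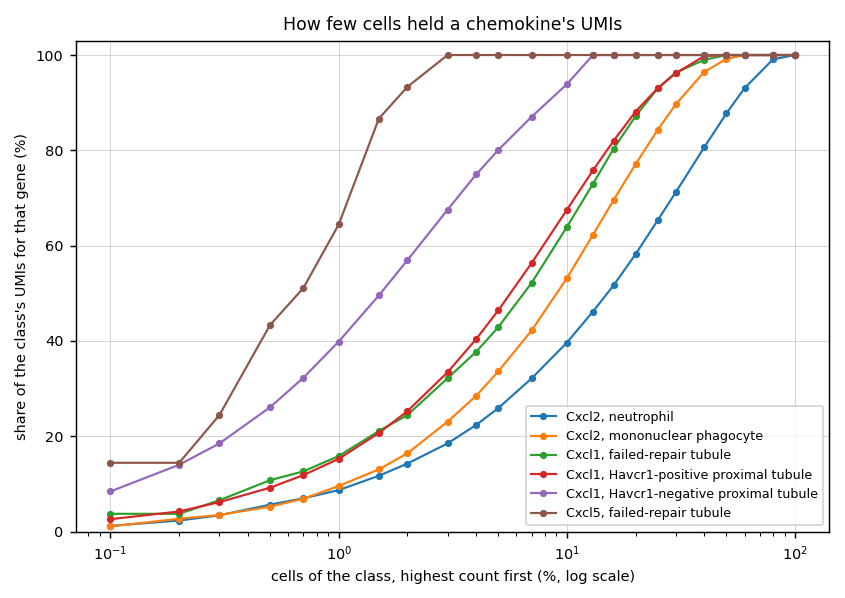
Cumulative share of a class's UMIs for a ligand (vertical axis, percent) against the share of the class's cells taken in falling order of count (horizontal axis, percent, log scale). Cxcl5 in failed-repair tubule and Cxcl1 in Havcr1-negative proximal tubule rise earliest, as 0.696% and 1.53% of cells hold 50% or more of the UMIs, and Cxcl2 in neutrophils rises latest (15.1%).

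Cxcl2 was lower than Cxcl1 in these tubule classes, in the same order. It was 291.4 CPM in failed-repair tubule, 35.7 in Havcr1-positive and 13.3 in Havcr1-negative proximal tubule, and of these only the failed-repair level lay above the free RNA of the same libraries (88.6 CPM). By library the failed-repair level was 322.5, 529.6, 115.2, 181.4 and 0 CPM, where the 0 in library 5 would allow up to 5.20 CPM at 3 counts. The pooled ratio of failed-repair to Havcr1-negative cells was 21.9-fold (log2 4.45), and within libraries 1 to 4 it was 55.6-fold, 21.5-fold, 5.08-fold and 16.3-fold. The pooled log2 ratio was 3.17 after thinning to 1000 UMIs, with shallower cells left out, and 2.99 as a mean over cells. Of the 718 failed-repair cells, 17 held 50% or more of the Cxcl2 UMIs. Of the 334 failed-repair cells with Cxcl1, 42.2% also had Cxcl2, against 6.25% of those without Cxcl1, whose median depth was 7464.5 rather than 10650.5 UMIs.

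Beyond the proximal tubule, both ligands stood above free RNA in some classes and libraries. Collecting duct principal cells had 102.0 CPM of Cxcl2 (88.5 to 117.1) beside 83.7 CPM of free RNA, with 172.4, 306.3 and 50.02 CPM in libraries 1 to 3, of which the first 2 lay above free RNA. In library 2 that level came from 3 of 35 cells. Thick ascending limb had 63.8 CPM of Cxcl2, below free RNA, but 253.4 CPM in library 1, from 9 of 125 cells. Distal convoluted tubule had 45.0 CPM, also below free RNA, but 216.7 CPM in library 2, from 3 of 27 cells, and 72.7 CPM in library 1, from 1 of 23 cells. For Cxcl1 the pooled levels of these 3 classes, 47.2, 55.3 and 48.8 CPM, were all below free RNA. In library 1 Cxcl1 was above it in collecting duct principal cells (139.9 CPM, in 42.4% of 33 cells) and thick ascending limb (227.6 CPM, in 9.6% of 125 cells). The same held for distal convoluted tubule in library 1 (67.1 CPM, in 17.4% of 23 cells) and, narrowly, in library 2 (93.4 against 86.9 CPM).

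Cxcl1 UMIs were also found in fibroblasts, podocytes and leukocytes. Fibroblasts stood at 364.9 CPM (interval 292.7 to 449.6), 3.39-fold above proximal tubule (log2 1.76, 1.44 to 2.06), from 36 cells of which 12 had a UMI and 3 held 50% or more of the 88 UMIs. Podocytes stood at 394.5 CPM, with 3 of 61 cells holding 50% or more of 153 UMIs, and their leading genes included the contractile genes Tagln and Acta2 beside podocyte markers. Phagocytes had 221.4, 280.4, 211.0, 97.9 and 20.5 CPM in libraries 1 to 5, and overall Arg1 macrophages had 376.7, C1q macrophages 240.0 and classical monocytes 75.0 CPM. Arg1 macrophages stood above C1q macrophages in library 3 (499.9 against 212.7 CPM), and in library 4 (96.6 against 106.4 CPM) the interval of the ratio held no difference. The phagocyte level lay above free RNA in libraries 1 to 3 and below it in libraries 4 and 5. Neutrophils were lower than phagocytes in libraries 2, 3 and 4 (65.2, 82.1 and 44.5 CPM) while in library 1, where 13 UMIs in 51 cells gave 272.6 CPM, the interval of the ratio held no difference. In libraries 2 to 4 the neutrophil level was also below free RNA.

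The order of the proximal tubule segments for Cxcl1 differed between pooled and single libraries. Cells with markers of the S3 segment stood at 53.5 CPM and those with markers of S1 at 89.2, yet within libraries 1, 3 and 4 the S3 level was the higher (66.9 against 47.0, 152.8 against 136.6 and 72.2 against 61.0 CPM), in library 2 the interval of the ratio held 1 (1.03-fold), and in library 5 S3 was lower (4.597 against 23.1 CPM). Library 3, where Havcr1-negative cells had their highest Cxcl1 level, supplied 6456 of 15828 S1 cells but 356 of 10569 S3 cells.

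Cxcl5 (LIX), in other tissues mainly an epithelial product, was rare: 324 UMIs in 106 cells, 227 of them in library 2. It was 20.4 CPM in distal convoluted tubule, 11.7 in failed-repair tubule and 8.20 in thick ascending limb, where the free-RNA levels were 0.798, 1.14 and 0.855 CPM. The first and last of these levels rested mainly on 1 cell each. One distal convoluted tubule cell held 28 of the class's 43 UMIs, one thick ascending limb cell held 38 of 50, one unassigned cell held 39 of 63, and these 3 held 105 of all 324. Pooled, failed-repair tubule had the highest share of cells with a UMI, 20 of 718, but in libraries 1 and 2 distal convoluted tubule had the higher share, 1 of 23 and 2 of 27 cells against 6 of 203 and 10 of 195. The failed-repair level was 12.8, 25.1, 1.14, 5.55 and 0 CPM in libraries 1 to 5. The Havcr1-positive level, 0.643 CPM, was 2.95-fold the Havcr1-negative one (log2 1.56, interval 0.70 to 2.36) from 18 and 51 UMIs, both levels were below free RNA, and within libraries 2 and 3 the interval held no difference. The pooled interval also held no difference with a 10% mitochondrial limit (log2 1.11, -0.17 to 2.24) and after thinning (log2 0.65, -2.53 to 2.77, from 2 and 14 UMIs). Neutrophils had no Cxcl5 UMI, which allows up to 1.69 CPM.

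**Figure D4:**
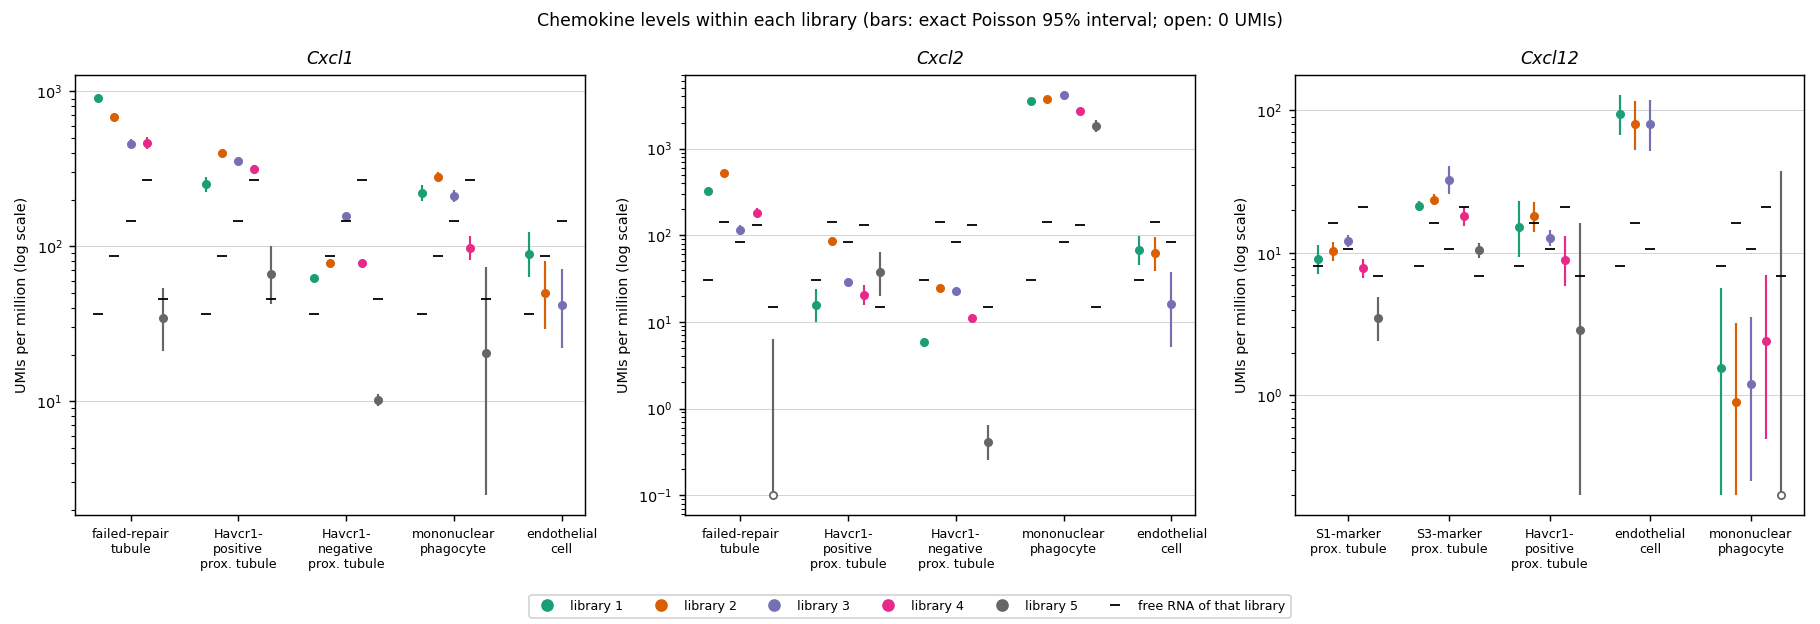
Cxcl1, Cxcl2 and Cxcl12 in CPM on log axes, in each library with at least 20 cells of the class (coloured points, bars are exact Poisson 95% intervals, open points had 0 UMIs, black dashes are the free RNA of that library). Library 5 has the lowest Cxcl1 level in each class it is shown for, and Cxcl12 is higher in S3-marker than in S1-marker cells in all 5 libraries.

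Across all genes with at least 20 UMIs in the 2 classes together, 22.3% were at least 2-fold higher and 5.06% at least 2-fold lower in failed-repair than in Havcr1-negative proximal tubule. Of the 7 members with that many UMIs, 4 (Cxcl1, Cxcl2, Cxcl3 and Cxcl5) were higher and none lower, with a median log2 ratio of 2.96 against 0.34 over all genes. For Havcr1-positive against Havcr1-negative cells the background was 5.9% higher and 3.04% lower, and 3 of 7 members (Cxcl1, Cxcl2 and Cxcl5) were higher and none lower. For Cxcl2 the pooled ratio of 2.68-fold was 2.73-fold, 3.45-fold, 1.29-fold and 1.85-fold in libraries 1 to 4, so it fell short of 2-fold in library 3, which held 2614 of the 3507 Havcr1-positive cells, and in library 4. In library 5 the 91.2-fold ratio came from 13 UMIs in 1 cell. Cxcl12 was 13.6 CPM in failed-repair tubule, 13.1 in Havcr1-positive and 14.1 in Havcr1-negative cells with overlapping intervals, and Cxcl3 in failed-repair tubule was 1.69 CPM, under its free-RNA level of 2.0.

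Cxcr2, the receptor for all 4 ELR ligands, was found mainly in neutrophils, which held 69.0% of its 1672 UMIs. Neutrophils of libraries 1 to 4 had 566.1, 742.4, 550.5 and 658.7 CPM, and 56.5% of neutrophils had a UMI (interval 53.6 to 59.4). In 1460 phagocytes no Cxcr2 UMI was found in 7327883 UMIs, which allows a level of up to 0.409 CPM and a share of cells with a UMI of up to 0.205%, and sets no limit on cells that express the gene with no transcript captured. The neutrophil level was at least 1291-fold higher by the lower limit of the ratio's interval (1589-fold against the level that 3 counts would give). The share of neutrophils with Cxcr2 was 45.1% in library 1 (51 cells) and 56.2% to 57.6% in libraries 2 to 4. In Havcr1-negative proximal tubule, taken as a class that should lack Cxcr2, 0.201% of cells had a UMI at a median depth of 4845 UMIs, and the level of 0.423 CPM was under the free-RNA level of 1.54. Mixed cells held 21.7% of Cxcr2 UMIs and proximal tubule cells 6.58%.

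Cxcr1, the second receptor, was near the limit of detection. It had 47 UMIs in all kept cells, 22 of them in 21 neutrophils, which makes 12.4 CPM (interval 7.77 to 18.8), and 15 in mixed cells. By library, neutrophils had 0, 10, 11 and 1 UMIs in libraries 1 to 4. Of the 21 neutrophils with Cxcr1, 11 also had Cxcr2.

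Cxcr4, the CXCL12 receptor, had no single bearer. Its level was 117.3 CPM in neutrophils (interval 101.9 to 134.4), 71.4 in B cells (47.8 to 102.5), 59.9 in phagocytes (54.4 to 65.8), 56.4 in T cells (47.3 to 66.8), 37.7 in mature dendritic cells (21.9 to 60.3) and 20.8 in NK cells (6.77 to 48.6). The neutrophil interval lay above those of phagocytes and T cells and just met that of B cells, and the intervals of B cells, phagocytes and T cells overlapped. In neutrophils of libraries 1 to 4 it was 146.8, 169.9, 51.9 and 125.3 CPM, and in phagocytes of libraries 1 to 5 it was 55.5, 107.1, 32.8, 34.5 and 51.1 CPM. The neutrophil level was the higher within each of the 4 libraries, with a pooled ratio of 1.96-fold (log2 0.97, 0.72 to 1.21). Both classes were lowest in library 3, and T cells too differed between libraries, with 79.9 CPM in library 2 and 37.8 in library 1. Within library 3 the pooled order of neutrophils and lymphocytes did not hold, as T cells stood at 53.6 and B cells at 69.0 CPM beside 51.9 in neutrophils, with overlapping intervals. Free Cxcr4 was likewise highest in library 2, at 10.1 CPM. In Havcr1-negative proximal tubule the level was 0.487 CPM, under the free-RNA level of 2.80.

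Detection of Cxcr4 in neutrophils was alike with and without Cxcr2: 15.5% of the 637 cells with Cxcr2 had Cxcr4, and 15.9% of the 490 without. Among phagocytes, Cxcr4 was 72.6 CPM in C1q macrophages, 38.6 in Arg1 macrophages and 33.1 in classical monocytes. Within library 3, which held most monocytes and Arg1 macrophages, the 3 values were 38.2, 38.0 and 23.2 CPM with overlapping intervals. In library 2 the pooled order of monocytes and C1q macrophages was turned, at 141.4 and 106.6 CPM, again with overlapping intervals.

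**Figure D5:**
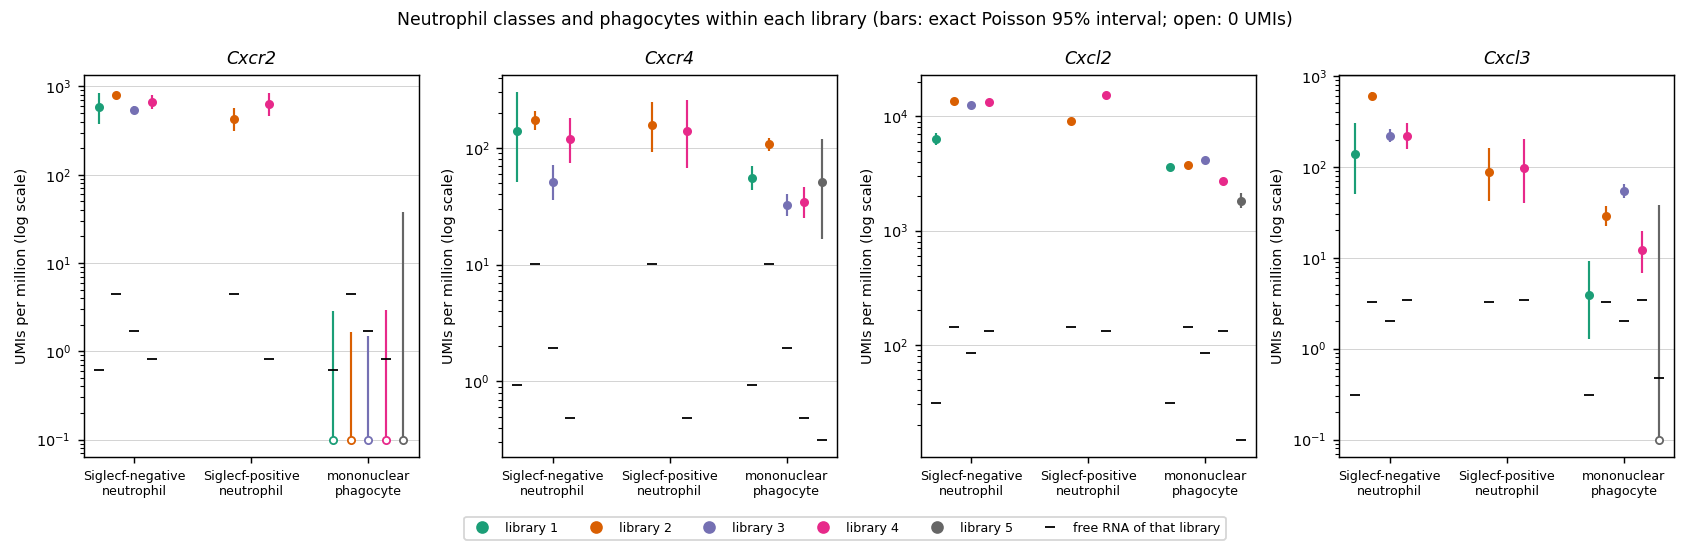
Cxcr2, Cxcr4, Cxcl2 and Cxcl3 in Siglecf-negative neutrophils, Siglecf-positive neutrophils and mononuclear phagocytes, in CPM on log axes, for each library with at least 20 cells (coloured points, bars are exact Poisson 95% intervals, open points had 0 UMIs, black dashes are free RNA of that library). Cxcr2 is 0 in phagocytes of all 5 libraries, and Siglecf-positive cells can be shown for libraries 2 and 4 only.

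For neutrophils against phagocytes, 16.6% of all genes with at least 20 UMIs were at least 2-fold higher and 20.6% at least 2-fold lower. Of the 6 members with that many UMIs, 4 (Cxcl2, Cxcl3, Cxcr1 and Cxcr2) were higher, 1 (Cxcl1) was lower, and Cxcr4 fell short of 2-fold. Cxcr1 (22 UMIs) and Cxcr2 (1154 UMIs) had 0 UMIs in phagocytes, so they passed the count filter through neutrophils alone. These 2 could only be called higher, and their calls cannot be weighed against the share over all genes.

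Neutrophils with a UMI of Siglecf, a sialic acid receptor found on eosinophils and on long-lived tissue neutrophils, numbered 114, of which 62 were in library 2 and 38 in library 4. Cxcr2 was 523.6 CPM in them and 667.1 in Siglecf-negative neutrophils (log2 ratio -0.35, interval -0.65 to -0.06). The difference lay in library 2 (428.1 against 796.2 CPM), since in library 4 the levels were 633.9 and 668.7 CPM, and without library 2 the log2 ratio was 0.18. The pooled interval held no difference with a 10% mitochondrial limit (log2 -0.20, -0.52 to 0.10), a lower limit on transcripts of other classes (-0.16, -0.51 to 0.18) or thinning (-0.23, -0.64 to 0.15). Cxcr4 was 148.2 against 113.3 CPM (log2 0.39, -0.22 to 0.95), with 157.3 against 172.1 in library 2 and 140.9 against 119.0 in library 4, so no difference was detectable at this depth. Cxcl3 was lower in Siglecf-positive cells, 148.2 against 383.2 CPM (log2 -1.37, -1.95 to -0.84). It was 87.4 against 607.6 CPM in library 2 and 98.6 against 221.0 in library 4 (log2 -1.16, -2.57 to 0.01). Without library 2 the log2 ratio was 0.07. That value took in library 3, where only 10 neutrophils were Siglecf-positive. In that library 67 neutrophils held 164 Cxcl3 UMIs, and Siglecf-negative cells were 66 of them with 151 UMIs. Cxcl2 was 11677 against 12931 CPM, lower in library 2 (0.67-fold) and higher in library 4 (1.15-fold). Between these 2 classes 10.7% of all genes with at least 20 UMIs were at least 2-fold higher and 7.49% at least 2-fold lower in Siglecf-positive cells. Of 6 members none was higher and 2 (Cxcl1, with 7 against 125 UMIs, and Cxcl3) were lower. Cxcr1, 1 of the 6, passed the count filter through Siglecf-negative cells alone, with 0 UMIs against 14.0 CPM. The 3 counts that stood in for that 0 make 14.8 CPM, so Cxcr1 could be called neither way. Cxcl1 was 43.7 against 68.9 CPM in library 2 and 28.2 against 51.0 in library 4, short of 2-fold with overlapping intervals and below free RNA in both.

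Cxcl12 (SDF-1) had its highest levels in stromal cells and most of its transcripts in proximal tubule. Fibroblasts stood at 497.6 CPM (412.6 to 595.0), with a UMI in 20 of 36 cells, and endothelial cells at 89.8 CPM (73.7 to 108.4), a ratio of 5.54-fold (log2 2.47, interval 2.08 to 2.86). Fibroblasts were 16, 8, 11, 1 and 0 cells in libraries 1 to 5, so no library gave a ratio of its own, and the pooled log2 ratio was 3.74 without library 1 and 2.05 without library 2. Endothelial cells were alike in the 3 libraries with 20 or more of them, at 94.4, 79.8 and 79.9 CPM. Fibroblast marker genes made up 26.9, 80.4, 871.8, 5349 and 954.1 CPM of free RNA in libraries 1 to 5 but 59.3, 44.9, 9.12, 6.37 and 0.959 CPM of kept cells, so fibroblast transcripts of libraries 3 to 5 lay mainly outside the cells analysed. The fibroblast gate asked for 5 times the free-RNA share of these markers in the same library, so it was stricter in libraries 3 to 5. What this does to the number of fibroblasts and to their level was not tested.

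Proximal tubule held 82.3% of the 4468 Cxcl12 UMIs, at the level of all kept cells (14.0 CPM in both) and close to the free-RNA level of 12.4, while neutrophils (1.13), phagocytes (1.37) and T cells (1.25 CPM) lay far under theirs (14.5, 13.6 and 13.1). Within Havcr1-negative cells, those with S3 markers had 18.4 CPM and those with S1 markers 9.66, a ratio of 1.91-fold (log2 0.93, interval 0.81 to 1.05). The S3 level was the higher in every library, at 21.4, 23.6, 32.5, 18.0 and 10.5 CPM against 9.05, 10.3, 12.1, 7.82 and 3.49, with ratios of 2.29-fold to 3.0-fold. Free Cxcl12 was 8.03, 16.2, 10.7, 21.0 and 6.84 CPM in libraries 1 to 5. The S1 level lay below it in libraries 2, 4 and 5, and the S3 level in library 4. Median depths were 6956 UMIs in S3-marker and 5272.5 in S1-marker cells. Of the distal segments, thick ascending limb was level with proximal tubule at 13.8 CPM (interval 10.99 to 17.1), though its libraries ran from 4.98 CPM in library 3 to 38.1 in library 1. Distal convoluted tubule had 1.90 CPM (4 UMIs) and collecting duct principal cells 0.503 CPM (1 UMI), both below free RNA.

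Genes that share pathways with the 8 members were read from a list of 23. Csf3r, the receptor for the neutrophil growth factor G-CSF, was 805.2 CPM in neutrophils and 21.8 in phagocytes, while Pf4, a platelet chemokine also made by macrophages, was 3.95 and 863.8 CPM. The NF-kappaB inhibitor Nfkbia was 3353 CPM in neutrophils and 1175 in phagocytes, and Nfkbiz, an atypical member of the same inhibitor family, was 762.4 and 425.2 CPM. Of the 18 listed genes with enough UMIs, 8 were at least 2-fold higher in neutrophils and 2 lower, beside the 16.6% and 20.6% of all genes. Of the G protein and brake genes of receptor signalling, Gnai2, Arrb2, Grk2 and Rgs2 stayed within 2-fold, and Rgs18 was higher in neutrophils at 20.3 against 8.73 CPM.

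In failed-repair tubule, 10 of 18 listed genes were at least 2-fold higher than in Havcr1-negative proximal tubule and 1 was lower (Csf3r, from 1 UMI), beside 22.3% and 5.06% of all genes. Rgs18, 1 of the 18, had 0 UMIs against 0.107 CPM. As 3 counts would make 0.391 CPM, it could be called neither way. Il1r1, the interleukin-1 receptor, was 6.52 against 0.0983 CPM, Tlr2 20.5 against 1.19, Nfkbia 497.4 against 93.1 and Tnfrsf1a 67.1 against 26.2 CPM. In Havcr1-positive cells 3 of 18 were higher (Tlr2, Tlr4 and Rgs2) and none lower, beside 5.9% and 3.04%. In Siglecf-positive against Siglecf-negative neutrophils none of 15 was higher and 3 were lower (Tlr2, and Tlr4 and Rgs18 from 3 and 2 UMIs with intervals that held no difference), beside 10.7% and 7.49%. Csf3, 1 of the 15, had 0 UMIs against 15.3 CPM. As 3 counts would make 14.8 CPM, it too could be called neither way. Ackr3, a scavenger of CXCL12, was 58.6 CPM in failed-repair tubule and 36.2 in Havcr1-negative cells, both above the 7.89 CPM of neutrophils.

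The genes most like each member were found by Pearson correlation of log2(CPM + 1) over the 17 classes with at least 50 cells, among 12666 genes with at least 10 CPM in a class. These correlations share libraries and depth and are a description only. For Cxcl2 they were Nfkbiz (r = 0.947), Slc11a1 (0.915) and Nlrp3 (0.884), and for Cxcl3 Fpr2 (0.969), Trem3 (0.965) and Fpr1 (0.959). Cxcl1 was most like Sqstm1 (0.87), Stxbp6 (0.85) and Mir99ahg (0.84), and Cxcl5 most like Ccl20 (0.889), Uroc1 (0.869) and Stk32b (0.868). The genes named for Cxcl5 peak in distal convoluted tubule or thick ascending limb, where its own level rested mainly on 1 cell each. Cxcr2 and Cxcr1 were each most like genes seen almost only in neutrophils, with Mrgpra2a and Nlrp12 among the 3 for both (r of 0.991 for Cxcr2), and these likenesses rest on that 1 class. The remaining gene was Ceacam10 for Cxcr1 and 1700071M16Rik for Cxcr2. Cxcl12 was most like Spry4 (0.916), Csgalnact1 (0.912) and Irx5 (0.895), and Cxcr4 most like the leukocyte genes Coro1a (0.915), Was (0.914) and Il10ra (0.912).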

How the data were processed

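The authors aligned reads to mm10 and counted UMIs with Cell Ranger 6.0, and the deposited matrix holds raw UMI counts for 32285 genes, with no normalization and no cells called. Neither the labels nor the barcodes map a library to a condition. Cells were called per library with the 2 steps of Cell Ranger, and 70033 barcodes passed. Of these, 509 had fewer than 200 genes and 12565 more than 25% mitochondrial counts, some of them both, leaving 57417 cells. No doublet caller was run, but cells that passed more than 1 gate were set aside.

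A cell entered a class if it had at least 3 of the class's markers (2 for lists of 3 or 4 genes) at 5 times or more their free-RNA share, read from barcodes ranked 45000 to 90000 by UMIs in each library. Cells of other classes with tubule markers at 0.5 of the free-RNA share or more were set aside. Proximal tubule needed 3 detected markers and either 0.2 of that share or a Havcr1 UMI, and segments needed 2 markers of their own and fewer of the other. Subclasses of phagocytes needed 3 detected markers of their list, with no limit set by free RNA. A phagocyte took the subclass with the largest share of its list detected, and ties were left out. In neutrophils the median tubule-marker share was 0.279% of UMIs, and no other class's markers had a median above 1 detected. This scoring rule, the members, the marker and companion lists and several of the comparisons were chosen with earlier results of these data known.

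Levels are summed UMIs per 1000000 (CPM). A 0 is given with the level 3 counts would make. UMIs were counted by 3' tags, so a level does not scale with transcript length. Genes named are the 8 members, the 23 listed genes and the 3 most similar genes per member. Scripts used Python 3.11.15, numpy 2.4.6, scipy 1.17.1, pandas 2.3.3 and numba 0.67.0, and calling and ratios were tested on simulated data.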

Additional observations from a re-analysis of the deposited data

How the results depend on the processing

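Ratios below are log2. The 10 planned ratios were recomputed with no calling step, a 10% mitochondrial limit, at least 500 genes, 1 more marker, a lower limit on transcripts of other classes, thinning to 1000 UMIs, means over cells, and without each library. Of the ratios added after the data were seen, 7 got the same. The remaining added ratios given above were not recomputed. Of 204 recomputed values, 131 stayed within their counting interval, 71 moved outside it and 2 reversed. These counts include the Cxcr2 values of neutrophils against phagocytes, which are lower bounds because phagocytes had 0 UMIs. With the 10% mitochondrial limit, Cxcl2 in neutrophils against phagocytes was 1.89, Cxcl1 in Havcr1-positive against Havcr1-negative cells 2.01, Cxcl1 in fibroblasts against proximal tubule 1.37 and Cxcl12 in fibroblasts against endothelial cells 1.98. At 500 genes Cxcl2 was 1.75 and Cxcl3 3.32 (neutrophils against phagocytes). With 1 more marker Cxcl2 was 1.70, and Havcr1-positive against Havcr1-negative cells gave 2.21 for Cxcl1 and 2.59 for Cxcl5. With the lower limit on other-class transcripts Cxcl2 was 1.95 and Cxcl3 3.91. Thinned, neutrophils against phagocytes gave 8.39 for Cxcr2 (against the floor) and 1.95 for Cxcl2, Havcr1-positive against negative cells 2.21 for Cxcl1 and 0.65 for Cxcl5, and fibroblasts against proximal tubule 2.09 for Cxcl1. As means over cells, Cxcl2 was 1.96, Cxcl1 by Havcr1 2.09 and Cxcl12 in fibroblasts 2.94. Without 1 library, neutrophils against phagocytes ran from 0.83 to 1.11 for Cxcr4, 1.71 to 1.92 for Cxcl2 and 2.85 to 4.63 for Cxcl3. For Cxcr2 the lower bounds against 3 counts ran from 9.94 to 10.62, and they also follow the number of UMIs kept. Havcr1-positive against negative cells ran from 1.86 to 2.57 for Cxcl1 and 1.24 to 2.26 for Cxcl5, and fibroblasts from 1.30 to 2.20 for Cxcl1 and 2.05 to 3.74 for Cxcl12. Siglecf-positive against negative neutrophils ran from -0.59 to 0.18 for Cxcr2, -0.07 to 0.97 for Cxcr4 (whose pooled interval held no difference) and -2.50 to 0.07 for Cxcl3. The 2 reversals were Cxcr2 and Cxcl3 without library 2, and the one for Cxcl3 leaned on few Siglecf-positive UMIs. Of the added ratios, Cxcl1 in failed-repair against Havcr1-negative cells ran from 2.62 to 3.55, Cxcl2 from 4.21 to 5.03, and Cxcl3 in Arg1 against C1q macrophages from 2.63 to 4.24. The pooled intervals of Cxcl5 by Havcr1 (10% mitochondrial limit, thinning) and of Cxcr2 by Siglecf (these and the lower limit on other-class transcripts) came to hold no difference. The causes were not tested. Fibroblasts (36 cells) and Siglecf-positive neutrophils (114 cells) are too few for firm levels. No paired test was made, since the matrix was treated as 1 pooled sample: each labelled group has 1 replicate and no library is tied to a group. Libraries do pair the cell classes, and the ratios within them are given as values beside the pooled ones.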
